A study of Mus musculus with 6 samples.

Results

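The genes described here encode the ATG8 proteins of mouse muscle, 3 receptors that carry cargo to them, and a kinase and a transcription factor that start or supply autophagy. They were picked by name, with earlier results of these data known. Map1lc3a, Map1lc3b, Gabarap, Gabarapl1 and Gabarapl2 are the ATG8 genes, Sqstm1, Nbr1 and Bnip3 the receptors, and Ulk1 and Tfeb the regulators. All 10 were found among the 22180 genes of the arrays. Gabarap had 2 probe sets and is represented by the brighter one, and each of the other genes had 1. All 10 lay above 5.85 on the log2 scale, the level taken as background (the 95th percentile of 1394 olfactory and vomeronasal receptor genes).

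RNA came from gastrocnemius, a calf muscle with mostly fast fibres, and each of the 6 arrays held RNA of 1 mouse. Per the labels, 3 control mice carried floxed TAK1 alleles that were not deleted, and 3 littermates lacked TAK1 in skeletal muscle and were sampled 3 weeks after deletion. TAK1, the product of Map3k7, is a signalling kinase downstream of cytokine receptors and receptors of the TGF-beta family. The sources used here do not give the promoter behind the deletion, the strain or the age of the mice. The values are log2 levels per probe set, and since probe sets differ in brightness for the same amount of RNA, levels are compared between arrays and never between genes.

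In autophagy, a double membrane closes around cell contents and fuses with a lysosome, where the contents are degraded. ATG8 proteins, the LC3 and GABARAP families, are joined to a lipid of that membrane, and receptors hold cargo by binding both the cargo and an ATG8 protein. ULK1 starts the process in response to nutrient and energy signals, and TFEB switches on genes of lysosomes and autophagy. Muscle fibres use the pathway to turn over proteins and mitochondria, and it is more active in fasting and in denervated muscle. Several of its genes are known targets of FoxO factors in wasting muscle.

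Facts of the whole set of arrays bear on every value below. Median levels of the arrays lay between 5.78 and 5.84. All 15 core muscle markers were bright, each at 12.39 or higher as a mean over the arrays. Of these markers, 10 were lower and 5 higher in knockout muscle, with 0 called, and their mean log2 level was 13.45 to 13.48 in controls and 13.35 to 13.41 in knockouts, without overlap. Map3k7 itself lay lower in every knockout (8.17 to 8.28) than in every control (8.32 to 8.47), with a log2 difference of −0.19 that was not called (limma, adjusted p = 0.686). The deleted exons are not named and other cells of the tissue keep the gene, so this value does not check the labels. All 10 tendon markers were lower in knockout muscle, with 0 called, and their summed level (antilog values) ranged from 2483 to 3913 in controls and from 1344 to 2827 in knockouts. In whole muscle, fewer cells of a type and less RNA per cell cannot be told apart.

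The comparison asked which of the 10 transcripts differed between knockout and control muscle. None passed an adjusted p of 0.05 in limma, a linear model fitted over all 22180 genes with Benjamini-Hochberg adjustment, in which 21 genes (0.0947%) passed. Gabarapl1 and Nbr1 were higher and Map1lc3a and Tfeb were lower in every knockout array than in every control array. These 4 of the 10 genes also had an unadjusted p under 0.05, as did 8.04% of all genes (3.93% higher and 4.12% lower in knockout muscle). Groups without overlap were found in 13.4% of all genes, 6.74% with the knockouts higher and 6.65% with the knockouts lower. The other 6 genes overlapped between the groups. The median difference over the 10 genes was 0.05 on the log2 scale, against −0.0003 over all genes. The median size without regard to sign was 0.17 against 0.10. Since the 10 genes were chosen with earlier results of these data known, these shares and medians do not test the family. With 3 against 3 arrays, a two-sided exact permutation test cannot give a p below 0.1, which is the value for each of the 4 genes.

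**Figure D1:**
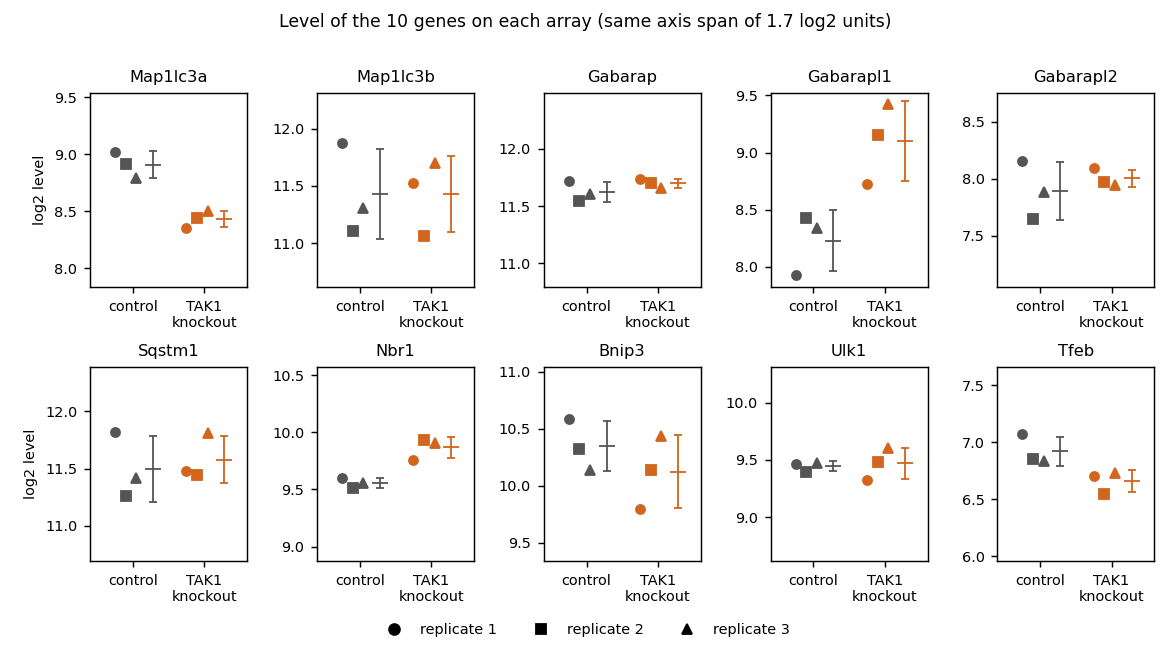
Log2 level of the 10 genes on each of the 6 arrays, with 1 panel per gene and a marker shape per replicate number; the horizontal tick and bar give the mean and SD of 3 arrays, and all panels span the same range. The groups do not overlap for Map1lc3a, Gabarapl1, Nbr1 and Tfeb, while control 1 and knockout 3 stand above the other arrays of their group for Map1lc3b, Sqstm1 and Bnip3.

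Gabarapl1, an ATG8 protein of the GABARAP family, showed the largest difference of the 10 genes. On the log2 scale it was at 7.93, 8.42 and 8.34 in controls 1, 2 and 3 and 8.73, 9.15 and 9.42 in knockouts 1, 2 and 3. The lowest knockout lay 0.30 above the highest control, although the knockouts themselves spread over a wider range than the gap. The means were 8.23 ± 0.26 and 9.10 ± 0.35 (SD, n = 3), a 1.83-fold higher level in knockout muscle. The log2 difference was 0.87 (SE 0.19, 95% confidence interval 0.43 to 1.31), with an unadjusted p of 0.00175 and an adjusted p of 0.233 in limma. By p-value it ranked 166 of 22180 genes. Without knockout 3, which had the highest Gabarapl1 level, the difference was 0.71, and without control 1, which had the lowest, it was 0.72.

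The tendon markers had their own order on the same arrays. Averaged over the markers, their log2 level was 7.20 in control 1, 7.77 in control 2 and 7.69 in control 3, and 7.32 in knockout 1, 6.92 in knockout 2 and 6.40 in knockout 3. Knockout 3 thus held the highest Gabarapl1 and the lowest tendon level, while control 1 held the lowest Gabarapl1 and the lowest tendon level of the controls. Of the 10 tendon markers, 9 lay above background, and the dimmest averaged 5.22. The part of the tendon difference in that of Gabarapl1 was not tested.

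The promoter of Gabarapl1 is shown because the gene had the largest difference and because FoxO factors, which bind forkhead sites, are known to act on ATG8 genes in muscle. The sequence is that of the RefSeq promoter table, build GRCm38.p6, plus strand, the 250 bases before the start site, chr6:129532942-129533191, and capitals mark the match to a forkhead site, ATAAACA, 95 bases upstream of the start.
Gabarapl1: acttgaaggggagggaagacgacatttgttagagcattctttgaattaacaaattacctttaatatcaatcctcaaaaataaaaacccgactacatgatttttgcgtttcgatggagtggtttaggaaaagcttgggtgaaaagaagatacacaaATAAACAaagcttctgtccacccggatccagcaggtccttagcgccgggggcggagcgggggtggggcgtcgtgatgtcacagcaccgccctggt
The table held 12 promoter windows of 300 bases for 9 of the 10 genes, all but Map1lc3a. On either strand, ATAAACA was in 1 of the 12 windows, that of Gabarapl1, and in 4.59% of 32544 promoters, and this spelling was searched after the sequence had been seen. GTAAACA, the only forkhead spelling planned for the search, was in 0 of the 12 windows and in 3.66% of all promoters. A match names letters and not a bound site.

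Map1lc3a, an LC3 protein, differed in the opposite direction. On the log2 scale it was at 9.02, 8.92 and 8.79 in controls 1, 2 and 3 and 8.36, 8.44 and 8.50 in knockouts 1, 2 and 3. The arrays of each group lay close together, and the highest knockout was 0.29 below the lowest control. The means were 8.91 ± 0.12 and 8.43 ± 0.07 (SD, n = 3), so that the level was 28.1% lower in knockout muscle. The log2 difference was −0.48 (SE 0.10, 95% confidence interval −0.71 to −0.24), with an unadjusted p of 0.00139 and an adjusted p of 0.231 in limma. Leaving out 1 array gave −0.54 to −0.42, and since the groups did not overlap, this could not turn the direction.

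Map1lc3b, the LC3 protein most often used to follow autophagosomes, had no difference in means but a wide spread. Controls were at 11.87, 11.11 and 11.31 and knockouts at 11.53, 11.06 and 11.70 on the log2 scale. Control 1 was the highest array and knockout 2 the lowest, with the groups fully interleaved. The log2 difference was −0.001 (SE 0.22, adjusted p = 0.999 in limma). Its 95% confidence interval in fold terms ran from 0.703 to 1.42, so a moderate change either way was not detectable with these arrays.

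Gabarap and Gabarapl2, the other GABARAP genes, overlapped between the groups. Controls were at 11.72, 11.55 and 11.61 and knockouts at 11.74, 11.70 and 11.66 for Gabarap, the narrowest range of the 10 genes at 0.19. Its log2 difference was 0.08 (95% confidence interval −0.14 to 0.29, adjusted p = 0.901 in limma), and its second, dimmer probe set gave 0.05. Gabarapl2 was at 8.16, 7.65 and 7.88 in controls and 8.09, 7.97 and 7.95 in knockouts. All 3 knockouts lay between the highest and the lowest control, and the log2 difference was 0.11 (95% confidence interval −0.20 to 0.42, adjusted p = 0.902 in limma). Without control 2 its direction turned (−0.0147), and without control 1 it was 0.238.

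Ratios of ATG8 genes within each array are not moved by a shift of the whole array. They are given as a description, since the pairs were chosen after the values were seen, and each is set to a control mean of 0 on the log2 scale. Gabarapl1 relative to Gabarap, its nearest relative, was −0.40, 0.27 and 0.13 in controls and 0.38, 0.84 and 1.16 in knockouts, without overlap. Gabarapl1 relative to Gabarapl2 did overlap, since knockout 1 stood at 0.30 and control 2 at 0.44. Map1lc3a relative to Map1lc3b overlapped as well, with −0.09 in knockout 2 against −0.33 in control 1.

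**Figure D2:**
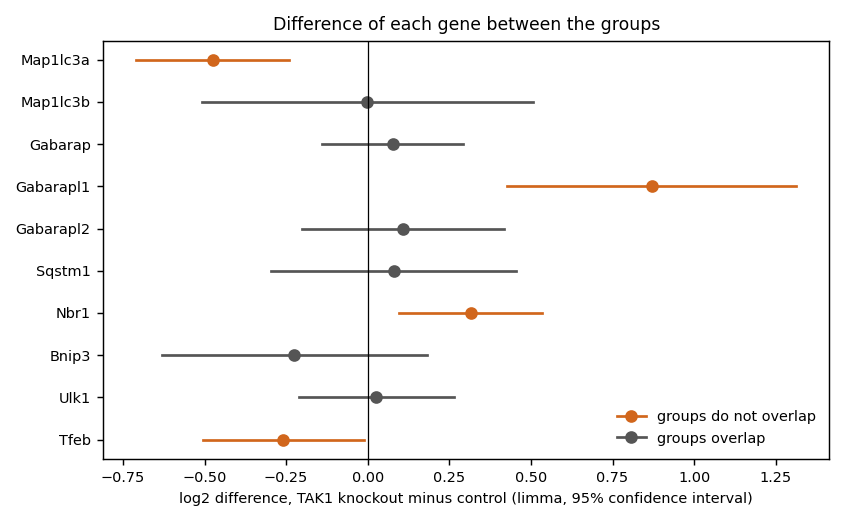
Log2 difference of each gene between 3 knockout and 3 control arrays (points) with limma's 95% confidence interval (lines); orange marks genes whose groups do not overlap. The interval lies to the right of 0 for Gabarapl1 and Nbr1 and to the left for Map1lc3a and Tfeb, while those of Map1lc3b, Sqstm1 and Bnip3 are wide and include 0.

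Among the receptors, Nbr1, which binds ubiquitin on cargo and works beside the product of Sqstm1, had a small difference with little spread. Controls were at 9.60, 9.51 and 9.55 and knockouts at 9.76, 9.94 and 9.91 on the log2 scale. The control values lay within 0.1 of each other, and the lowest knockout lay 0.16 above the highest control. The level was 1.24-fold higher in knockout muscle (log2 difference 0.31, SE 0.10, 95% confidence interval 0.10 to 0.53), with an unadjusted p of 0.0104 and an adjusted p of 0.430 in limma.

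Sqstm1 encodes the ubiquitin-binding receptor known as sequestosome. Controls were at 11.82, 11.26 and 11.42 and knockouts at 11.48, 11.44 and 11.81 on the log2 scale. Control 1 and knockout 3 were almost equal and above the other 4 arrays. The log2 difference was 0.08 (95% confidence interval −0.30 to 0.45, adjusted p = 0.951 in limma), and its direction turned without control 2 or without knockout 3.

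Bnip3, a receptor on the outer mitochondrial membrane, was at 10.59, 10.32 and 10.14 in controls and 9.79, 10.14 and 10.44 in knockouts. Knockout 1 was the lowest array, while knockout 3 exceeded 2 of the 3 controls. The log2 difference was −0.22 (95% confidence interval −0.63 to 0.18, adjusted p = 0.829 in limma), and it ran from −0.38 to −0.06 when 1 array was left out.

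Bnip3 was the only one of the 9 genes with a promoter window to hold a match to CACGTG, the core of the E-box that TFEB and its relatives bind. The stretch was picked because it held the match, and printing the promoter of Bnip3 was not planned. The stretch is shown with the E-box in capitals, 108 bases before the start site, minus strand of GRCm38.p6, chr7:138909582-138909641.
Bnip3: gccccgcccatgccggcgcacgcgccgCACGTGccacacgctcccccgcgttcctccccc
CACGTG was in 1 of the 12 windows and in 7.17% of all promoters. The full 10-base palindrome of lysosomal genes, known as the CLEAR motif, which contains CACGTG, was in 0 of the 12 windows and in 0.329% of all promoters.

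Of the regulators, Tfeb was lower in every knockout than in every control but was not called, and Ulk1 was not separated. For Tfeb, controls were at 7.07, 6.86 and 6.84 and knockouts at 6.70, 6.55 and 6.73. The highest knockout lay 0.10 below the lowest control, and the level was 16.4% lower (log2 difference −0.26, SE 0.11, 95% confidence interval −0.51 to −0.01). The unadjusted p was 0.0413 and the adjusted p 0.601 in limma. The difference ran from −0.301 to −0.185 when 1 array was left out.

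For Ulk1, controls were at 9.46, 9.39 and 9.47 and knockouts at 9.33, 9.48 and 9.60. The knockouts lay on both sides of the controls, with a log2 difference of 0.03 (adjusted p = 0.978 in limma). Its 95% confidence interval in fold terms was 0.864 to 1.20. The direction turned without knockout 3 (−0.0391), and without knockout 1 the difference was 0.0985.

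The arrays themselves formed a pattern across the genes. Control 1 held the highest level of 6 of the 10 genes, Map1lc3a, Map1lc3b, Gabarapl2, Sqstm1, Bnip3 and Tfeb, and the lowest level of Gabarapl1. Over all genes above background, control 1 was the highest array for 23.8%. Relative to the control mean, control 1 and knockout 3 stood at 0.45 and 0.27 for Map1lc3b, at 0.32 and 0.32 for Sqstm1 and at 0.24 and 0.09 for Bnip3. These 3 genes therefore varied as much within the groups as between them. Control 3 held neither the highest nor the lowest level of any of the 10 genes.

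**Figure D3:**
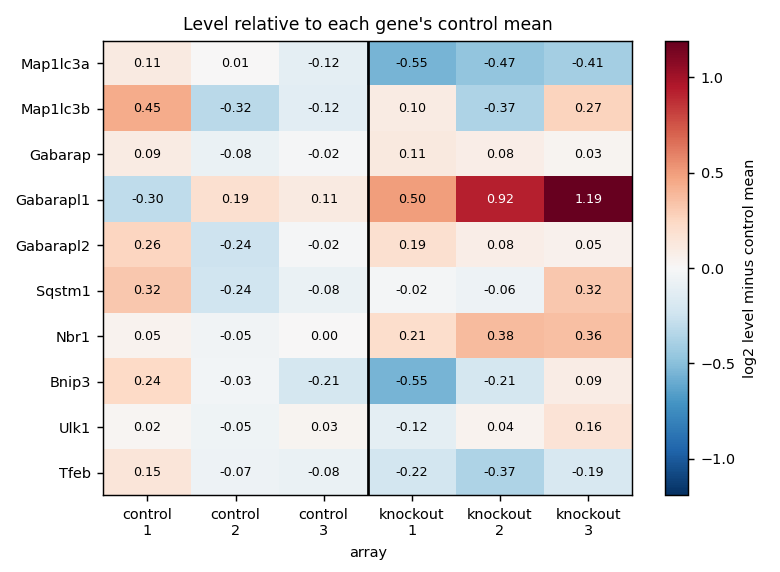
Log2 level of each gene on each array minus the gene's mean over the 3 controls, with red above and blue below that mean and the value printed in each cell. Gabarapl1 runs from 0.50 to 1.19 in the knockouts, and Map1lc3a from −0.55 to −0.41, while control 1 is red for Map1lc3b, Sqstm1, Gabarapl2 and Bnip3.

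The rest of the pathway was examined through 8 lists of other genes, ordered by step. Of the 99 genes listed, 94 had their own probe set, and 0 passed an adjusted p of 0.05 in limma in either direction. An unadjusted p under 0.05 was reached by 8 of the 94 (8.51%, against 8.04% of all genes), 5 higher and 3 lower. Groups did not overlap in 14 of the 94 (14.9%, against 13.4% of all genes). Both shares were near those of all genes. In all, 47 genes were higher and 47 lower in knockout muscle, with a median log2 difference of −0.0002.

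Initiation genes, which form or control the ULK1 complex, had a median log2 difference of 0.05 over 8 genes, 5 higher and 3 lower. Both catalytic subunits of AMP-activated kinase, which phosphorylates ULK1, were at the ends of this list. Prkaa1 had means of 8.91 ± 0.14 (control) and 9.21 ± 0.11 (knockout; SD, n = 3; log2 difference 0.30, adjusted p = 0.534 in limma), without overlap. Prkaa2 overlapped, with a log2 difference of −0.22 (adjusted p = 0.780 in limma). The nucleation list, the class III PI3-kinase complex that marks the membrane with a lipid, had a median of −0.03 over 8 genes. Its lowest value was that of Rubcn, an inhibitor of the complex, at −0.44 (adjusted p = 0.644 in limma), where control 1 at 8.69 stood apart from the other controls at 7.87 and 8.04. Its highest was that of the catalytic subunit Pik3c3 at 0.16.

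Genes of membrane supply had a median of 0.01 over 10 genes, from Atg9a, a lipid scramblase carried on vesicles, at −0.25 to Wdr45, a lipid-binding WIPI protein, at 0.17. Genes that process and conjugate ATG8 proteins had a median of −0.02 over 11 genes, with 5 higher and 6 lower. The lowest was Atg4c, an ATG4 protease that trims ATG8 proteins, with means of 7.73 ± 0.15 (control) and 7.44 ± 0.06 (knockout; SD, n = 3; log2 difference −0.29, adjusted p = 0.533 in limma). The highest was Atg10, the enzyme that joins ATG12 to ATG5, at 0.30 (adjusted p = 0.711 in limma).

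The other receptors of cargo had a median of −0.01 over 16 genes, 7 higher and 9 lower. Retreg1, a receptor for turnover of the endoplasmic reticulum, had the largest difference of the 8 lists. Controls were at 11.65, 11.79 and 11.66 and knockouts at 12.02, 12.32 and 12.56 on the log2 scale. The knockouts lay 0.23 or more above every control, in the same order of arrays as Gabarapl1. The level was 1.52-fold higher (log2 difference 0.60, SE 0.14, 95% confidence interval 0.28 to 0.92, adjusted p = 0.262 in limma). The lowest of this list was Ncoa4, the receptor for ferritin, at −0.10.

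Fusion genes had a median of −0.02 over 9 genes, from the SNARE protein Stx17 at −0.12 to the tethering subunit Vps41 at 0.21. Relatives of TFEB and their lysosomal targets had a median of 0.02 over 19 genes, 10 higher and 9 lower. A link between these genes and the level of Tfeb was not tested. The highest above background was Atp6v1a, a subunit of the proton pump that acidifies lysosomes, with means of 7.78 ± 0.13 (control) and 8.15 ± 0.10 (knockout; SD, n = 3; log2 difference 0.37, adjusted p = 0.415 in limma). The lowest was Rragd, a small GTPase of the lysosome surface, at −0.28 (adjusted p = 0.601 in limma). FoxO factors and their targets had a median of 0.02 over 13 genes, from Foxo1 at −0.29 to the transcriptional regulator Cited2 at 0.40 (adjusted p = 0.440 in limma). Foxo1 was at 9.69, 9.80 and 8.98 in controls and 8.89, 8.94 and 9.78 in knockouts, with 1 array of each group at the other group's level. Foxo1 had 2 probe sets, and these values are those of the brighter one only.

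**Figure D4:**
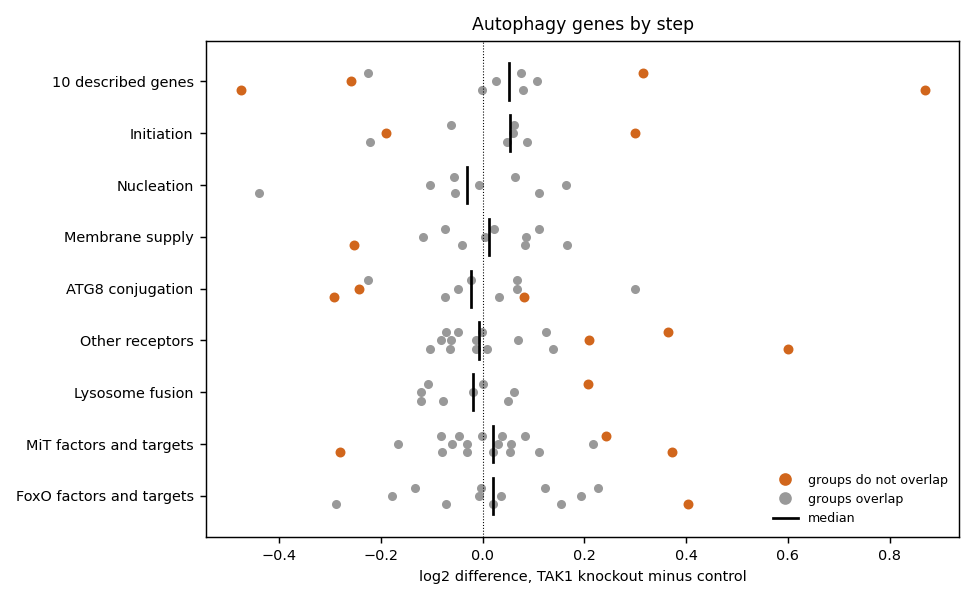
Log2 difference between knockout and control muscle (points) for the 10 described genes and for 94 other measured genes in 8 lists by step, with vertical bars at the medians and orange for groups that do not overlap. List medians lie between −0.03 and 0.05, and Gabarapl1 at 0.87 and Retreg1 at 0.60 are the points farthest to the right.

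Likeness of array profiles was taken as the root mean square difference between the 6 values after each gene was centred on its own mean, over 12600 genes above background. Genes picked this way have like group differences by the way they are picked, so those differences are a description and no separate result. The genes most like Gabarapl1 were Ehd4, a membrane-remodelling ATPase, at 0.17, Retreg1 at 0.19 and Ppargc1a, a coactivator of mitochondrial genes, at 0.20 log2 units, against 0.50 for the spread of Gabarapl1 itself. Their log2 differences were 0.77, 0.60 and 0.59, none past the test (limma, adjusted p = 0.196, 0.262 and 0.351). The genes most like Map1lc3a were Csk, a kinase that restrains SRC, at 0.03, the receptor Gpr146 at 0.05 and the membrane-binding protein Pacsin3 at 0.06, against 0.25 for its own spread. Their log2 differences were −0.47, −0.43 and −0.57, none past the test (limma, adjusted p = 0.213, 0.231 and 0.129). In all, 39 genes lay within 0.1 of Map1lc3a and 0 within 0.1 of Gabarapl1. The limit of 0.1 did not scale with the spread, which was larger for Gabarapl1, so these counts cannot be compared between the genes.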

How the data were processed

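RNA of 6 muscles was measured on Affymetrix arrays. The authors deposited log2 values, 1 for each of 41345 probe sets per array, for which the submitters' processing notes name RMA, oligo and limma; their versions and order, and a genome build, are not stated. RMA makes intensity distributions alike and compresses differences of dim transcripts. Probe sets were named through GEO's platform annotation: 23521 had 1 symbol, 1814 several and 16010 none, and only those with 1 symbol were used. A gene was represented by its brightest probe set over all arrays. The 5 other listed pathway genes are not reported here.

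The comparison used limma 3.58.1 (R 4.3.3, lmFit, eBayes, group means, two-sided, Benjamini-Hochberg over 22180 genes, threshold 0.05), without a filter. The fit was tested on data simulated with independent noise per gene. That checks the code and does not measure the power for the 10 genes. Plots used matplotlib 3.10.9 in Python 3.11.15. The genes and lists were chosen with earlier results of these data known. The genes named were the 10 described, Map3k7, any called list gene, the highest and lowest of each list above background, and the 3 profiles most like each of the 2 genes with the largest difference. The labels do not say that replicate numbers mark a litter, so they were not taken as pairs. Deviations from the group means had r over genes of 0.08, 0.21 and −0.07 for same-numbered arrays. For arrays of unlike number, r ran from −0.22 to 0.14. These values do not decide whether the arrays are paired, and a block for the number was run as an alternative. The number of arrays limits the precision.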

Additional observations from a re-analysis of the deposited data

How the results depend on the processing

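None of the 10 genes and none of the 94 other pathway genes was called under any alternative run, and the smallest adjusted p of the 10 (limma, or the ordinary linear model in that alternative) lay between 0.0876 and 0.535. Gabarapl1, Nbr1, Map1lc3a, Tfeb, Gabarap and Bnip3 kept their direction under all of them. For Gabarapl1, Nbr1, Map1lc3a and Tfeb the groups did not overlap, so leaving out 1 array could not turn the direction. Runs that changed only the error estimate or the set of genes tested left each difference as it was. With the replicate number as a block, 17 genes were called over all genes, against 21, and Gabarapl1 had an adjusted p of 0.108. The near-zero difference of Map1lc3b turned sign with array weights (0.0156), centring on core muscle genes (0.0739), median centring (0.011) and quantile normalization (0.0075). Leaving out 1 array gave −0.16 to 0.22 for Map1lc3b, −0.0147 to 0.238 for Gabarapl2, −0.0388 to 0.239 for Sqstm1 and −0.0391 to 0.0985 for Ulk1. Over all genes, 6 were called with every probe set tested, 53 among genes above the median gene, 45 among genes above background, 36 with an intensity trend and robust prior and 0 with an ordinary linear model per gene (1612 at an unadjusted p under 0.05), and 2 to 11 without 1 array; fewer genes were tested in the filtered sets, and otherwise the cause was not tested. Centring on core muscle genes moved the median of all genes by 0.07. With it the log2 difference went from −0.26 to −0.18 for Tfeb and from −0.48 to −0.40 for Map1lc3a. It went from 0.31 to 0.39 for Nbr1 and from 0.87 to 0.94 for Gabarapl1. The sizes thus depend on the scaling, most in proportion for Tfeb. Signal over background limits dim genes, and no detection calls were used.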
